A study of Homo sapiens with 9 samples.

Results

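The RNAs made from mitochondrial DNA (mtDNA) were compared in HEK293T cells and in a pair of clones derived from them. The set comprised all 37 genes whose symbol starts with MT-, out of 60683 gene identifiers: 13 mRNAs, 2 rRNAs and 22 tRNAs. The rule uses the name and no measured value, and every gene had a row in the deposited tables. HEK293T is a widely used cell line of human embryonic kidney origin with the large T antigen of SV40. The parental group was the untransfected line. Clone 37 and clone 15 each grew from 1 sorted cell after piggyBac transposition of a pair of luciferase reporters: ATG-(CAG)60-Myc-NLuc, which has a stretch of CAG repeats, and its repeat-free partner ATG-(CAG)0-Myc-FLuc. Reporter expression is labelled high in clone 37 and low in clone 15. All cells were grown in DMEM with 10% fetal bovine serum and penicillin/streptomycin, and none of the 9 libraries is labelled with a compound. Each group had 3 libraries. Since each reporter level is 1 clone, reporter level and clone cannot be told apart. The labels do not say whether replicates came from separate cultures, so p-values measure only the spread between these libraries, which may be technical.

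Human mtDNA is a small double-stranded circle, and both of its strands are read into long primary transcripts. Transcription from the heavy-strand promoter gives an RNA with the sequence of the annotation's plus strand, which holds both rRNAs, most of the tRNAs and all mRNAs but one. Transcription from the light-strand promoter gives minus-strand RNA, which carries the mRNA MT-ND6 and 8 of the tRNAs (MT-TQ, MT-TA, MT-TN, MT-TC, MT-TY, MT-TS1, MT-TE and MT-TP); the rest of it is antisense to the other genes and is normally degraded quickly inside the mitochondrion. The tRNAs sit between the other genes and are cut out by processing enzymes, which releases the mRNAs. All the mRNAs code for subunits of the respiratory chain or of ATP synthase. Below, plus-strand RNA means counts on a plus-strand gene's own strand or opposite a minus-strand gene, and minus-strand RNA the reverse. Levels are given as CPM, counts scaled to the library's total of gene counts on the transcript strand, and the same total was used for both strands of a gene.

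A few sequences show what a read can and cannot tell apart here. MT-TI and MT-TQ lie on opposite strands and overlap at their ends; the capitals mark the 3 bases of overlap, each written 5′ to 3′ on the gene's own strand (MT-TI chrM:4263-4331, plus; MT-TQ chrM:4329-4400, minus; GRCh38, GENCODE 29).
MT-TI: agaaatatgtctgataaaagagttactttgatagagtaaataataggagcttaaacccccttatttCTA
MT-TQ: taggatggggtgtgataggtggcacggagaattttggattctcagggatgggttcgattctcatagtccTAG
MT-TP, the minus-strand tRNA with the highest level in these libraries, is chrM:15956-16023 and is the first annotated gene on the way of transcription from the light-strand promoter.
MT-TP: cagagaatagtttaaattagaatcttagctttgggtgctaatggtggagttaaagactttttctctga
MT-TS1 (chrM:7446-7514) is shown on both strands, because the MT-CO1 mRNA is known to run on through the antisense of this tRNA, so that a read there can belong to either RNA and only its strand decides.
MT-TS1, minus strand: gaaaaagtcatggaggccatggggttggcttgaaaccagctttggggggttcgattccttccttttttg
MT-TS1 antisense, plus strand: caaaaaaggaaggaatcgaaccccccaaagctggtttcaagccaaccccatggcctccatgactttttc
MT-ATP8 (chrM:8366-8572) shares its last 46 bases, in capitals, with the start of MT-ATP6 on the same strand. Read pairs that touch both genes are counted for neither.
MT-ATP8: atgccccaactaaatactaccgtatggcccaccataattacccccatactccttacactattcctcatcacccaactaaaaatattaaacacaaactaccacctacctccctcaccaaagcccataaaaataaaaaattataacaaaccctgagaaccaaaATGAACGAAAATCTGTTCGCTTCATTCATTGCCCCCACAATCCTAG

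The nuclear genome carries copies of mtDNA, and some are close enough to catch mitochondrial reads or to make them map to more than 1 place. The windows below show 75 bases, the read length of the parental and clone 37 libraries, of a mitochondrial gene and of its copy on chromosome 1, with capitals at the bases that differ. Each window is the stretch of its gene with the most differences from the copy.
MT-ND2, chrM:4884-4958: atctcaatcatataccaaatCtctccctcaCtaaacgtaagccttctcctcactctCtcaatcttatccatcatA
MTND2P28, chr1:630054-630128: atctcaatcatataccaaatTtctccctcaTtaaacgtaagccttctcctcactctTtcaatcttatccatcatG
MT-CO1, chrM:6192-6266: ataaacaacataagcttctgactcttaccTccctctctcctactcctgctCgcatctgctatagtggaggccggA
MTCO1P12, chr1:631362-631436: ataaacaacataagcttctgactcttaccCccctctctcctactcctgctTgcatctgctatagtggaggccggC
MT-ATP6, chrM:8644-8718: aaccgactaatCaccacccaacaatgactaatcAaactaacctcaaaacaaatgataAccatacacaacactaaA
MTATP6P1, chr1:633813-633887: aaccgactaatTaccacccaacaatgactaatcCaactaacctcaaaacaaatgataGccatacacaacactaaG
Over their whole length the pseudogenes MTND2P28, MTCO1P12 and MTATP6P1 were 98.4%, 98.7% and 98.5% identical to MT-ND2, MT-CO1 and MT-ATP6. Of all 75-base words, 34.4% of those in MT-ND2, 36.6% in MT-CO1 and 28.0% in MT-ATP6 occurred without a mismatch in another annotated gene. The share was 16.3% for MT-ND1, 14.6% for MT-CO3 and 10.5% for MT-CO2. It was under 1% for MT-ATP8, MT-ND3, MT-ND4L, MT-ND4, MT-ND5 and MT-CYB. For MT-ND6 and MT-RNR2 it was 7.1% and 3.16%, and 0% for both in 100-base words. Only annotated transcripts were searched, and single words rather than read pairs, so the share does not measure unique mapping.

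The 9 libraries held between 10334090 and 38093340 gene counts on the transcript strand, and the clone 15 libraries were the deepest. Clone 15 was also the only group sequenced with 100-base reads, and in every comparison with it the effect of read length cannot be told apart from that of the clone. Read pairs that mapped to several places made up 4.59% to 5.98% in clone 15 and 10.4% to 14.0% in the other libraries. Parental replicate 2 stood apart from the other parental libraries: 19.2% of its read pairs fell on no gene, against 26.4% and 28.8%, and the nuclear RNA MALAT1 was at 2260 CPM against 5054 and 4174. All 7 HEK293T markers were detected in every library (the lowest was PAX2, at 6.76 CPM), while PTPRC, ALB, PECAM1, DES and DCN, markers of other cell types, reached 1.23 CPM at most. The clone 15 libraries stood apart as well, with 33.7% to 34.6% of read pairs on no gene. The strand of a read was well kept. In 979 abundant nuclear genes with no annotated antisense gene, the median share of counts on the wrong strand was 0.0739% to 0.0960% in the parental libraries, 0.103% to 0.217% in clone 15 and 0.0782% to 0.0863% in clone 37.

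The clearest difference lay between the strands of the mitochondrial genome. Minus-strand RNA was higher in clone 37 than in the parental line over every gene tested, by a median of 1.93 on the log2 scale, whereas plus-strand RNA differed by a median of 0.35. Over the 13 mRNA genes, minus-strand RNA summed to 1096, 528 and 1013 CPM in parental replicates 1 to 3. It summed to 2003, 2592 and 2037 CPM in clone 15 and to 2939, 3430 and 3667 CPM in clone 37. The groups did not overlap, and the order was parental, clone 15, clone 37. Plus-strand RNA over the same genes was 20752, 13200 and 19632 CPM in the parental libraries, 25495, 22187 and 22859 CPM in clone 15 and 20217, 21096 and 23374 CPM in clone 37. Here clone 37 overlapped with both other groups, and parental replicate 2 was the lowest library.

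The share of minus-strand RNA in the stranded counts of the 13 mRNA genes follows from these sums and does not depend on the library total. It was 5.02, 3.85 and 4.91% in the parental libraries, 7.29, 10.5 and 8.18% in clone 15 and 12.7, 14 and 13.6% in clone 37. Mean shares were 4.59 ± 0.647%, 8.64 ± 1.64% and 13.4 ± 0.661% (SD, n = 3). The share was 2.92 times the parental one in clone 37, 1.88 times in clone 15, and 1.55 times higher in clone 37 than in clone 15. Each of these comparisons had an exact two-sided permutation p = 0.1, the smallest that 3 against 3 libraries allow. Without parental replicate 2, the ratios to parental were 2.703 and 1.74. The share of read pairs on no gene and the wrong-strand share of nuclear genes were also higher in all clone 15 libraries than in any parental one, and their part in the clone 15 values was not tested. The amount of mtDNA per cell was not measured. In bulk RNA, differences between the strands in transcription and in decay cannot be told apart.

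**Figure D1:**
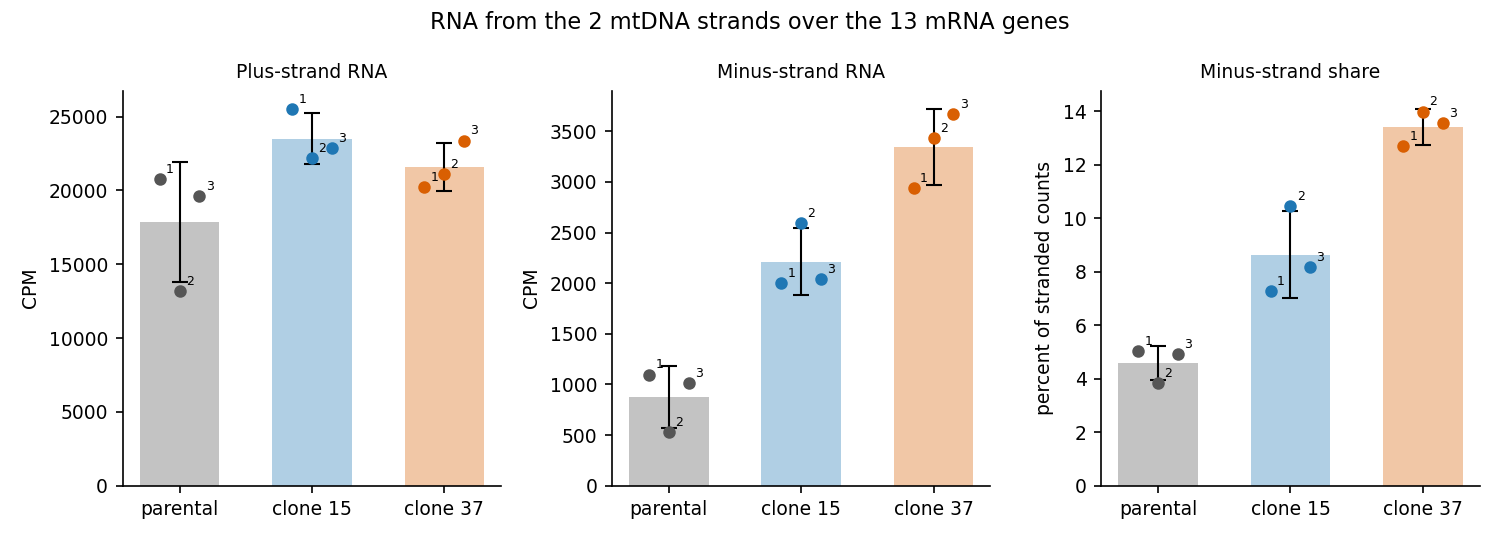
Plus-strand RNA, minus-strand RNA (both in CPM on linear axes from 0) and the minus-strand share (percent) over the 13 mRNA genes in each library. Points are libraries numbered by replicate, bars are group means and error bars are SD (n = 3); minus-strand RNA ran from 528 to 1096 CPM in parental libraries and from 2939 to 3667 CPM in clone 37.

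The strands were also compared gene by gene. The 13 mRNA genes are those summed above, and genes of 1 strand share long primary transcripts, so these tests are not independent. In clone 37 against parental, 20 of the 37 minus-strand features had enough counts to be tested, and all 20 were called higher by edgeR's quasi-likelihood test, that is, at a Benjamini-Hochberg adjusted p under 0.05 over all genes tested. They were the 13 mRNA genes and 7 tRNA genes, with log2 fold changes of 1.36 to 2.35. Of all genes tested, 54% were called on the transcript strand (26.7% higher, 27.3% lower) and 23.6% on the opposite strand (14.4% higher, 9.14% lower). The median over all opposite-strand features tested was 0.13, which sets the scale for these values. Without parental replicate 2, 20 of 21 tested were called, all higher. With no filter on low counts it was 17 of 29, and the antisense of MT-ND1, MT-ND2, MT-CO1, MT-CO2, MT-ND5 and MT-CYB, described below, lost its call at nearly the same fold changes (adjusted p = 0.053 to 0.14). Of 23 plus-strand features tested, 9 were called, all higher; without parental replicate 2 this became 17 of 25, of which 13 were higher and 4 lower.

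In clone 15 against parental, 15 of 22 minus-strand features were called, all higher, with a median log2 fold change of 1.04 over those tested. The background was 51.4% called on the transcript strand (25.1% higher) and 29.9% on the opposite strand (22.3% higher, 7.64% lower), and the median of all opposite-strand features was 0.28. Leaving out clone 15 replicate 2 left 9 called of 21. Plus-strand features gave 9 higher and 3 lower of 24 tested, or 6 higher and 1 lower of 25 without clone 15 replicate 1. Between the clones, 17 of 22 minus-strand features were called, all higher in clone 37 (median log2 difference 0.85). The background there was 57.7% on the transcript strand (28.7% higher) and 34.9% on the opposite strand (13% higher, 21.9% lower). Plus-strand features split into 5 higher and 8 lower of 25 tested.

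**Figure D2:**
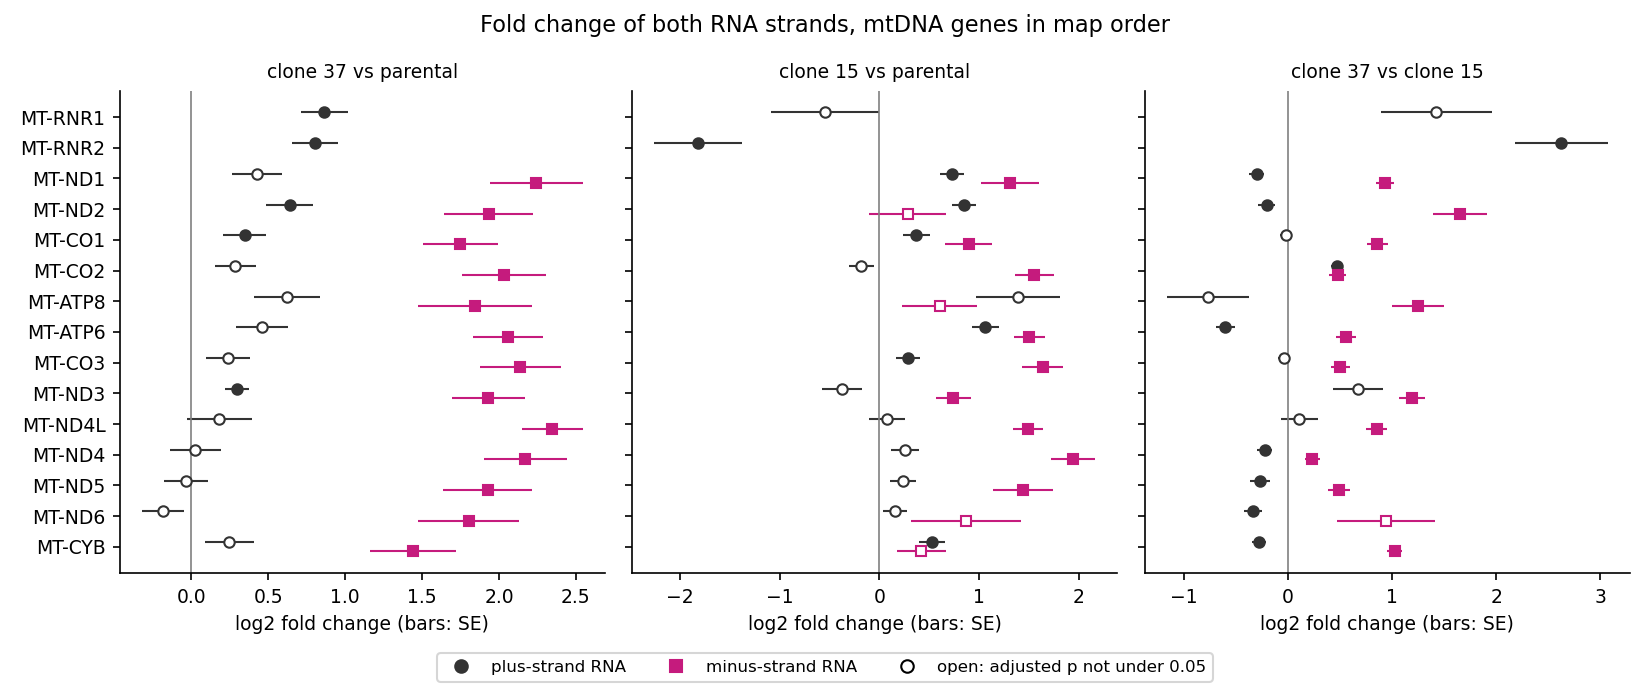
Log2 fold change (x axis, bars are SE) of plus-strand RNA (circles) and minus-strand RNA (squares) over the rRNA and mRNA genes in map order (y axis), one panel per comparison; filled symbols passed an adjusted p under 0.05. In clone 37 against parental the squares lie between 1.44 and 2.35, all to the right of every circle; minus-strand RNA over the rRNA genes was too low to be tested.

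MT-ND6, a complex I subunit and the only mRNA of the minus strand (chrM:14149-14673), was at 127, 58.2 and 114 CPM in the parental libraries. It was at 293, 363 and 398 CPM in clone 37, above every parental library. In clone 15 it was at 118, 313 and 124 CPM, so that replicates 1 and 3 lay within the parental range and replicate 2 alone lay far above it. MT-ND6 rose in clone 37 by a log2 fold change of 1.80 (adjusted p = 0.0092, SE 0.33). The clone 15 value, 0.87 (adjusted p = 0.26, SE 0.55), did not pass the test, nor did the difference between the clones, 0.94 (adjusted p = 0.16, SE 0.47); without clone 15 replicate 2 the latter was 1.52 (adjusted p = 0.0047). Set against the plus-strand mRNAs, MT-ND6 gave 6.28, 4.53 and 5.97 counts per 1000 in the parental libraries, 4.75, 14.4 and 5.56 in clone 15 and 14.8, 17.6 and 17.4 in clone 37. The clone 37 ratio was 2.96 times the parental one (exact two-sided permutation p = 0.1, the groups did not overlap). In clone 15 it was 1.47 times the parental one (exact p = 0.8), and 0.921 times without clone 15 replicate 2.

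Plus-strand RNA opposite MT-ND6 did not pass the test in either clone against parental. This is where the long untranslated tail of the MT-ND5 mRNA lies. It was at 579, 365 and 487 CPM in parental, 629, 494 and 496 CPM in clone 15 and 394, 424 and 462 CPM in clone 37, so the clone 37 libraries lay inside the parental range. The log2 fold change was -0.18 (adjusted p = 0.36, SE 0.14) in clone 37 and 0.15 (adjusted p = 0.34, SE 0.12) in clone 15. The first was -0.34 (adjusted p = 5.4e-06) without parental replicate 2. In the parental libraries this antisense RNA exceeded MT-ND6 itself, so that MT-ND6 made up only 16.9 ± 2.77% (SD, n = 3) of the stranded counts over its own gene, against 45 ± 2.02% in clone 37. A count that ignores strand adds both RNAs: MT-ND6 was then 20.8 ± 0.827 per 1000 plus-strand mRNA counts in parental and 22.1 ± 1.27 in clone 37 (SD, n = 3), a ratio of 1.06.

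The other minus-strand RNA over mRNA genes is antisense RNA with no annotated product. Per kilobase of the gene's sequence that no other gene of the same strand shares, in the order of transcription from the light-strand promoter, it averaged 101 CPM per kilobase over MT-CYB, 201 over MT-ND5 and 77.2 over MT-ND4 in the parental line, and the MT-ND6 mRNA, which lies between MT-CYB and MT-ND5, 190.0. Next came 30.2 over MT-ND4L, 51.2 over MT-ND3, 51.5 over MT-CO3, 22.9 over MT-ATP6 and 6.88 over MT-ATP8. It was then 26.8 over MT-CO2, 30.9 over MT-CO1, 23.3 over MT-ND2 and 22.3 over MT-ND1, and over MT-RNR2 and MT-RNR1, the last of these genes, 0.123 and 0.0842. The level was thus highest over MT-ND5. It did not fall evenly with distance, though it leaves out read pairs that touch both MT-ATP8 and MT-ATP6. In clone 37 it was 279 over MT-CYB, 669.6 over MT-ND6, 774 over MT-ND5 and 352 over MT-ND4, then between 24.6 (MT-ATP8) and 229 (MT-CO3) from MT-ND4L to MT-ND1. MT-RNR2 and MT-RNR1 were at 0.167 and 0.122. The rRNA genes lie beyond a known termination site for minus-strand transcription.

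MT-ND5 (complex I, chrM:12337-14148) held the largest amount of minus-strand antisense RNA. Minus-strand RNA over it was at 454, 218 and 419.9 CPM in parental, 922, 1198 and 889.8 CPM in clone 15 and 1232, 1430 and 1547 CPM in clone 37. No group overlapped another. It rose by 1.93 (adjusted p = 0.0068, SE 0.29) on the log2 scale in clone 37 and by 1.44 (adjusted p = 0.022, SE 0.30) in clone 15, and was higher in clone 37 than in clone 15 by 0.49 (adjusted p = 0.003, SE 0.10). The clone 15 call was lost in 4 of 11 alternative settings (other scalings, filters, tools or models, or 1 library left out), among them without clone 15 replicate 2, at 1.32 (adjusted p = 0.093), without parental replicate 3, at 1.53 (adjusted p = 0.061), and with no filter on low counts, at 1.44 (adjusted p = 0.11). The MT-ND5 mRNA itself did not pass the test in clone 37. Its own-strand level was 2278, 1451 and 2024 CPM in parental, 2511, 2004 and 2379 CPM in clone 15 and 1759, 1885 and 2067 CPM in clone 37, and the clone 37 difference from parental was -0.033 (adjusted p = 0.86, SE 0.14). Without parental replicate 2 that value was -0.19 (adjusted p = 0.0012).

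MT-ND4L and MT-ND4, complex I subunits translated from 1 shared mRNA, had the largest antisense fold changes among the mRNA genes in clone 37 and in clone 15 respectively. Minus-strand RNA over MT-ND4 was at 129, 65 and 123 CPM in parental, 394, 437 and 407 CPM in clone 15 and 434, 495 and 521 CPM in clone 37. Both clones lay far above the parental libraries and overlapped each other. The log2 fold changes were 2.17 (adjusted p = 0.0032, SE 0.27) in clone 37 and 1.94 (adjusted p = 0.00067, SE 0.22) in clone 15, and 0.23 (adjusted p = 0.0085, SE 0.07) between the clones. The call between the clones was lost without clone 15 replicate 1, at 0.20 (adjusted p = 0.084), and without clone 37 replicate 3, at 0.16 (adjusted p = 0.15). MT-ND4L antisense rose by 2.35 (adjusted p = 4.9e-05, SE 0.20) in clone 37 and 1.49 (adjusted p = 1.3e-08, SE 0.15) in clone 15. On their own strand neither passed the test in clone 37, with 0.027 for MT-ND4 and 0.18 for MT-ND4L. Without parental replicate 2, MT-ND4 was lower in clone 37, at -0.16 (adjusted p = 0.0051).

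Among the mRNA genes the clones differed most in the antisense of MT-ND2. Minus-strand RNA over MT-ND2 was at 31.3, 13.7 and 27.7 CPM in parental, 24.7, 41.8 and 22.9 CPM in clone 15 and 84.7, 90 and 104 CPM in clone 37. Clone 15 overlapped with parental and clone 37 lay above both. The log2 fold change was 1.93 (adjusted p = 0.0068, SE 0.29) in clone 37 and 0.28 (adjusted p = 0.63, SE 0.39) in clone 15, and the clones differed by 1.65 (adjusted p = 0.0069, SE 0.26). MT-CYB is the first mRNA gene on the way from the light-strand promoter. Its antisense was 148.3, 69.1 and 129.8 CPM in parental, 153, 169.6 and 148.4 CPM in clone 15 and 284, 325 and 346 CPM in clone 37. That gave 1.44 (adjusted p = 0.018, SE 0.28) in clone 37, 0.42 (adjusted p = 0.26, SE 0.25) in clone 15 and 1.02 (adjusted p = 1.7e-12, SE 0.07) between the clones. The lowest clone 15 library lay just above the highest parental one, and the clone 15 value passed the test without parental replicate 1, at 0.62 (adjusted p = 0.014), and with no filter on low counts, at 0.42 (adjusted p = 0.013). The clone 37 call for MT-CYB was lost without clone 37 replicate 2, at 1.44 (adjusted p = 0.061). The remaining antisense RNAs, over MT-ND1, MT-CO1, MT-CO2, MT-ATP8, MT-ATP6, MT-CO3 and MT-ND3, rose in clone 37 by 1.75 to 2.24. In clone 15 they were between 0.61 and 1.64 above parental, and all but MT-ATP8 passed the test. The calls for MT-ND1, MT-CO1 and MT-ND3 were lost without 1 or more of the clone 15 libraries (0.68 to 1.33).

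**Figure D3:**
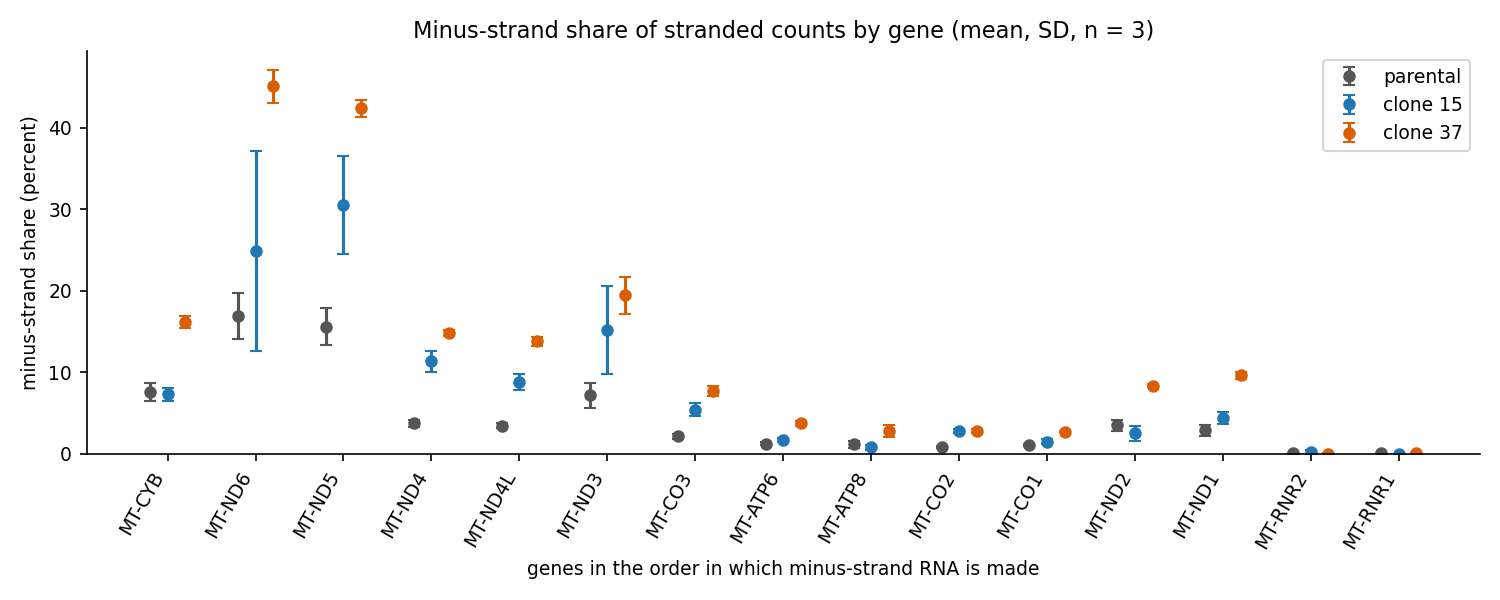
Minus-strand share of stranded counts (y axis, percent, mean with SD over 3 libraries) over each mRNA and rRNA gene, in the order in which minus-strand RNA is made (x axis, from the promoter on the left). Shares are highest over MT-ND6 and MT-ND5, where clone 37 reached 45.0% and 42.4% against 16.9% and 15.6% in parental, and at most 0.502% in any library over the rRNA genes.

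On their own strand the mRNAs of the plus strand differed less. The 13 mRNAs together took 2.03, 1.29 and 1.93% of gene counts in the parental libraries, 2.5, 2.2 and 2.25% in clone 15 and 2.01, 2.1 and 2.33% in clone 37. Clone 37 overlapped with both other groups, and parental replicate 2 was the lowest library by far. The mean share was 1.23 times the parental one in clone 37 (exact two-sided permutation p = 0.2) and 1.32 times in clone 15 (exact p = 0.1). Without parental replicate 2, the ratios were 1.09 and 1.17. Over the 6 mRNAs with almost no words in other genes, the share of gene counts in clone 37 was 1.08 times parental with all libraries (exact p = 0.9) and 0.951 times without parental replicate 2. The clone 15 share was 1.26 times parental (exact p = 0.2), where the groups overlapped, and 1.11 times without parental replicate 2. The MALAT1 level and the no-gene share of that library were low as well, and their part in these values was not tested.

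**Figure D4:**
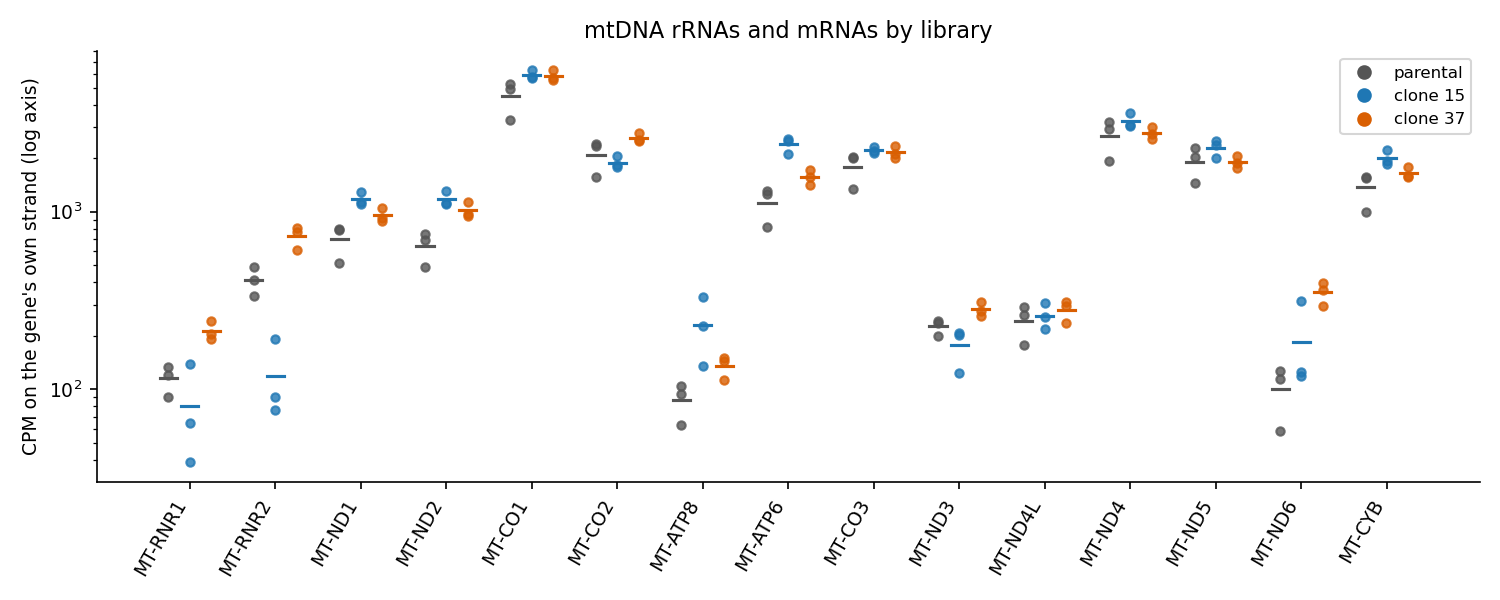
CPM on the gene's own strand (log axis) of the 2 rRNAs and 13 mRNAs in map order. Points are libraries, short lines are group means; MT-ND6 in clone 37, at 293 to 398 CPM, lies above all parental libraries, and clone 15 is lowest for MT-RNR2, at 76.2 to 191 CPM.

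Counting all 37 genes on their own strand, 13 of 23 tested were called in clone 37 against parental, all higher (background 26.7% higher). Of the mRNAs only MT-ND6, MT-ND2, MT-CO1 and MT-ND3 were among them. MT-ND2 (complex I) was at 749, 486 and 696 CPM in parental and 951, 976 and 1129 CPM in clone 37, with no overlap. It rose by 0.64 (adjusted p = 0.0092, SE 0.15), with 34.4% of its words shared with other genes. MT-ND3 (complex I) was at 242, 199 and 236 CPM in parental and 260.1, 275 and 311 CPM in clone 37, and rose by 0.30 (adjusted p = 0.0043, SE 0.08). It has almost no such words, and its call was lost without clone 37 replicate 3, at 0.19 (adjusted p = 0.077), and in a fit of all 9 libraries, at 0.30 (adjusted p = 0.26). MT-CO1, the catalytic subunit of complex IV, was the mRNA with the highest counts, at 5228, 3297 and 4944 CPM in parental and 5520, 5645 and 6245 CPM in clone 37. Its log2 fold change was 0.35 (adjusted p = 0.0499, SE 0.14), and the call was lost in 6 of 16 alternatives, among them without any one of the clone 37 libraries (0.27 to 0.38) and with DESeq2 (0.34, adjusted p = 0.12).

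The other plus-strand mRNAs in clone 37 had log2 fold changes of -0.03 to 0.62 that did not pass the test. MT-ATP6 and MT-ATP8, subunits of ATP synthase on 1 shared mRNA, were at 0.46 and 0.62, MT-ND1 (complex I) at 0.43, MT-CO2 and MT-CO3 (complex IV) at 0.29 and 0.24, and MT-CYB (complex III) at 0.25. Several lay close to the threshold. MT-ATP6 passed in 12 of 16 alternatives, among them DESeq2 (0.45, adjusted p = 0.046) and the fit of all 9 libraries (0.46, adjusted p = 0.0084). MT-ND1 passed in 10 of 16 (0.26 to 0.52), MT-ATP8 in 8 of 16 (0.60 to 0.76) and MT-CO2 in 6 of 16 (0.12 to 0.39). Within the plus strand, per kilobase and in the parental line, MT-CO2 and MT-CO1 were highest, at 3071 ± 676 and 2912 ± 676 CPM per kilobase (SD, n = 3). These did not differ beyond their spread. The lowest were MT-ATP8, at 540.4 ± 133 over its bases not shared with MT-ATP6, MT-ND2, at 618 ± 134, MT-ND3, at 653 ± 67.5, and MT-ND1, at 731 ± 165, again within their spread. Words in other genes can lower the counts of MT-CO1, MT-CO2, MT-ND1 and MT-ND2 but hardly those of MT-ND3 and MT-ATP8. MT-ATP8 loses the read pairs that also touch MT-ATP6, and dividing by its unshared bases may not correct for this. Both points limit this order.

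In clone 15 against parental, 12 of 23 genes were called on their own strand, 11 higher and 1 lower (background 25.1% higher and 26.2% lower). MT-ATP6 rose most among the mRNAs that passed, from 1307, 819.6 and 1251 CPM in parental to 2553, 2120 and 2505 CPM, a log2 fold change of 1.07 (adjusted p = 1.4e-06, SE 0.13). The groups did not overlap. MT-ND2 rose by 0.85 (adjusted p = 5.6e-06, SE 0.12) and MT-ND1 by 0.73 (adjusted p = 4.6e-05, SE 0.12). MT-CYB, with 0.53 (adjusted p = 0.002, SE 0.13), was the only mRNA called among the 6 with under 1% of their words in other genes. The other mRNAs called, all higher, were MT-ND1, MT-ND2, MT-CO1, MT-ATP6 and MT-CO3; in 100-base words, the read length of clone 15, the share of these in other genes was 4.38% to 27.9%. No test compared these classes. The calls for MT-CO1, at 0.37, and MT-CO3, at 0.29, were lost without clone 15 replicate 1 (0.34 and 0.27) and in several other settings. MT-CO2, at -0.18 (adjusted p = 0.24, SE 0.12), MT-ND3, at -0.37 (adjusted p = 0.17, SE 0.20), and MT-ATP8, at 1.39 (adjusted p = 0.0521, SE 0.42), did not pass. MT-ATP8 passed in 6 of 16 alternatives (1.32 to 1.68), DESeq2 among them (adjusted p = 0.0018), and MT-ND3 in 3 of 16 (-0.41 to -0.31). MT-CO2 passed without parental replicate 2, at -0.34 (adjusted p = 0.00023).

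Between the clones 13 of 24 genes were called on their own strand, 7 higher and 6 lower in clone 37 (background 28.7% higher and 29% lower). The 6 lower ones were all mRNAs of the plus strand. MT-ATP6 differed most, with a log2 difference of -0.60 (adjusted p = 0.00018, SE 0.09) between 1423, 1572 and 1727 CPM in clone 37 and the clone 15 values above. MT-ND1, MT-CYB, MT-ND5, MT-ND4 and MT-ND2 differed by -0.30 to -0.20. All of these but MT-ND1 lost their call in a fit of all 9 libraries (adjusted p = 0.063 to 0.15). MT-CO2 was higher in clone 37, at 2532, 2499 and 2778 CPM against 2047, 1787 and 1824 CPM in clone 15, a difference of 0.47 (adjusted p = 2.3e-07, SE 0.06). MT-CO1 and MT-CO3 were at -0.02 and -0.04, with adjusted p = 0.81 and 0.55.

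Reads of a mitochondrial gene with a nuclear copy can be counted at the copy, so the counts of each were set side by side. In the parental and clone 37 libraries, MTND2P28 had 3.57 to 4.05 counts per 100 counts of MT-ND2, with no separation of the groups. In clone 15 it had 7.88, 5.73 and 10.4. MTATP6P1 had 9.34 to 11.4 counts per 100 of MT-ATP6 in the parental and clone 37 libraries and 14.1, 13.7 and 16.9 in clone 15. MTCO1P12 had far fewer, 0.0820 to 0.115 counts per 100 of MT-CO1 in the parental and clone 37 libraries and 0.120, 0.130 and 0.170 in clone 15. Here too clone 15 lay above all others, at 1.36 times the parental mean (exact two-sided permutation p = 0.1). The parental libraries had 28, 19.7 and 24.9 CPM of MTND2P28, the clone 15 libraries 103, 63.7 and 116 CPM and the clone 37 libraries 37.4, 39.2 and 43.2 CPM. It was called in both clones, with log2 fold changes of 0.71 (adjusted p = 2.8e-05, SE 0.10) in clone 37, close to the 0.64 of MT-ND2, and 1.94 (adjusted p = 0.0049, SE 0.30) in clone 15, against 0.85 for MT-ND2. The clone 37 call was lost in the fit of all 9 libraries, at 0.71 (adjusted p = 0.076). The share of 75-base words of MT-ND2 found elsewhere, 34.4%, falls to 26.1% at 100 bases. Whether read length sets the clone 15 values of the genes with copies cannot be told apart from the clone. On the opposite strand, MTND2P28 per 100 counts opposite MT-ND2 averaged 4.62 ± 0.175 (SD, n = 3) in parental libraries, and the clones, at 5.13 ± 0.798 and 4.59 ± 0.977, overlapped with these.

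**Figure D5:**
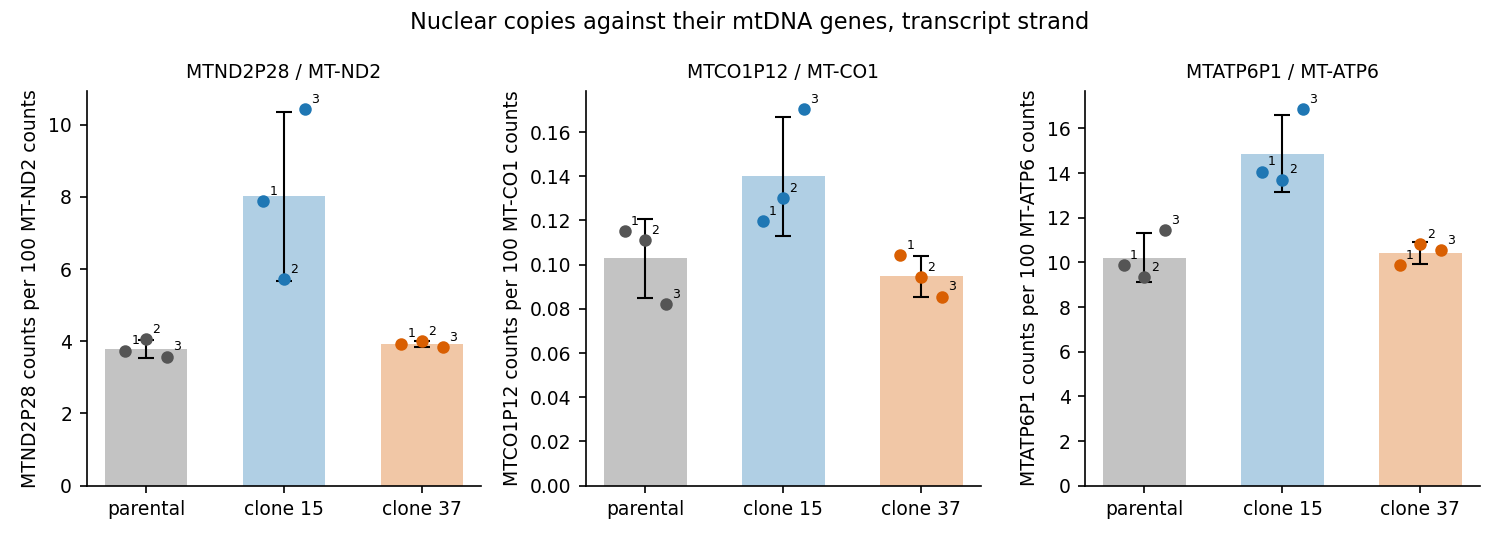
Counts of 3 nuclear copies per 100 counts of their mitochondrial gene (y axes, linear from 0) in each library. Points are libraries numbered by replicate, bars are means and error bars SD (n = 3); the ratios for MTND2P28 and MTATP6P1 are alike in parental and clone 37 and higher in all 3 clone 15 libraries.

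The rRNAs of the mitochondrial ribosome, 12S (MT-RNR1, chrM:648-1601) and 16S (MT-RNR2, chrM:1671-3229), are part of the plus-strand transcript. MT-RNR2 rose in clone 37 and fell in clone 15. The libraries were depleted of rRNA with a kit whose probes also target these RNAs, so the counts are residues, and how completely each library was depleted was not tested. MT-RNR2 was at 486, 335 and 413 CPM in parental, 90.5, 76.2 and 191 CPM in clone 15 and 612, 769 and 805 CPM in clone 37, and no group overlapped another. It rose in clone 37 by 0.80 (adjusted p = 0.0029, SE 0.15) on the log2 scale, fell in clone 15 with a log2 fold change of -1.81 (adjusted p = 0.028, SE 0.44), and differed between the clones by 2.63 (adjusted p = 0.0075, SE 0.44). The clone 15 call was lost in 6 of 16 alternatives (-1.93 to -1.56). Among them were the fits without any one parental library and without clone 15 replicate 1 or 2. MT-RNR1 was at 133, 90.6 and 121 CPM in parental, 64.4, 38.9 and 138 CPM in clone 15 and 242, 205 and 191 CPM in clone 37. It rose in clone 37 by 0.87 (adjusted p = 0.0031, SE 0.15). In a fit of all 9 libraries the clone 37 calls of MT-RNR2 and MT-RNR1 were lost (adjusted p = 0.12 and 0.17). In clone 15 the libraries were scattered around and below the parental ones, with -0.55 (adjusted p = 0.46, SE 0.54); without clone 15 replicate 3 the value was -1.15 (adjusted p = 0.047).

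The tRNA genes had few counts. Mature tRNAs are short, folded and modified. Their genes are 59 to 75 bases long. Read pairs that also touch a neighbouring gene of the same strand are counted for neither. Which tRNAs could be tested may depend on this, and why their counts were low here was not tested. MT-TK, MT-TG, MT-TR and MT-TL2 had no count on their own strand in any library, and 8 of the 22 had enough to be tested in clone 37 against parental. Of these, 7 were called, all higher, where 54% of all genes were called (26.7% higher), and 6 of the 7 are tRNAs of the minus strand: MT-TA at 2.21, MT-TS1 at 2.16, MT-TY at 1.93, MT-TP at 1.52, MT-TQ at 1.39 and MT-TE at 1.36. The plus-strand tRNAs were MT-TW, at 1.08 (adjusted p = 0.0047, SE 0.29), and MT-TT, at 0.54 (adjusted p = 0.18, SE 0.34). MT-TP, the tRNA for proline shown above, was at 17.5, 7.41 and 11.6 CPM in parental, 9.53, 11.3 and 9.86 CPM in clone 15 and 32.8, 34 and 37.6 CPM in clone 37. The clone 37 libraries stood above all others, and clone 15 overlapped with parental. The log2 fold change was 1.52 (adjusted p = 0.0037, SE 0.27) in clone 37 and -0.26 (adjusted p = 0.36, SE 0.22) in clone 15, and the clones differed by 1.78 (adjusted p = 5.2e-15, SE 0.10). The clone 15 value passed the test without parental replicate 2, at -0.51 (adjusted p = 0.011), and with counts that ignore strand, at -1.02 (adjusted p = 1.9e-07).

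Plus-strand RNA opposite MT-TP was at 21.6, 16.6 and 20.3 CPM in parental, 15.6, 9.87 and 12.7 CPM in clone 15 and 19.7, 20.1 and 22.4 CPM in clone 37. The clone 15 libraries lay below all others, and clone 37 overlapped with parental. It fell in clone 15, at -0.63 (adjusted p = 0.002, SE 0.15), was higher in clone 37 than in clone 15 by 0.70 (adjusted p = 0.00016, SE 0.13), and in clone 37 against parental, at 0.074 (adjusted p = 0.65, SE 0.11), did not pass the test. Plus-strand RNA opposite MT-TS1, where the MT-CO1 mRNA ends, was at 147, 95.4 and 138 CPM in parental, 209, 141 and 66.2 CPM in clone 15 and 157, 138 and 173 CPM in clone 37. The clone 15 libraries spanned the range of all others. MT-TS1 itself had 14, 6 and 17 counts in the parental libraries and 45, 52 and 55 in clone 37, and its rise is given above. Opposite MT-TQ, MT-TE and MT-TA, plus-strand RNA rose in clone 37 as well, by 1.57 (adjusted p = 9.2e-06, SE 0.19), 1.41 (adjusted p = 0.00084, SE 0.26) and 1.12 (adjusted p = 0.012, SE 0.30). The call opposite MT-TA was lost without clone 37 replicate 3, at 0.89 (adjusted p = 0.11). In clone 15 it rose opposite MT-TE, by 2.15 (adjusted p = 3.2e-07, SE 0.24), and opposite MT-TQ, by 0.88 (adjusted p = 0.0032, SE 0.22), and was at 0.75 (adjusted p = 0.074, SE 0.32) opposite MT-TA. Opposite MT-TY it fell in clone 15, at -0.52 (adjusted p = 0.015, SE 0.16), a call lost without any one library but parental replicate 2 (-0.53 to -0.38). In clone 15, where 51.4% of all genes were called (25.1% higher), 5 of 8 tested tRNAs were called on their own strand, all higher: MT-TY, MT-TA, MT-TS1, MT-TQ and MT-TW, at 0.71 to 1.48. The calls for MT-TW, MT-TS1, MT-TA and MT-TY were lost without parental replicate 2, at 0.49, 0.57, 0.90 and 1.13, and that for MT-TW in 9 of 15 alternatives.

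A list of 44 nuclear genes was set beside these RNAs: genes that transcribe, process, modify, stabilise or degrade mitochondrial RNA, 8 that maintain mtDNA and 6 regulators of nuclear genes for mitochondria. In clone 37 against parental 43 were tested and 31 called, 24 higher and 7 lower, where 54% of all genes were called (26.7% higher, 27.3% lower). Their median log2 fold change was 0.24, against 0.02 over all genes. In clone 15, 20 were higher and 9 lower of 44, where 51.4% of all genes were called (25.1% higher, 26.2% lower). Between the clones 18 were higher and 8 lower of 44, a share near the 57.7% called over all genes (28.7% higher, 29% lower). Among the transcription factors of the organelle, POLRMT, its RNA polymerase, had a mean of 88.3 ± 3.11 CPM (SD, n = 3) in parental libraries, with 107 ± 17.6 CPM in clone 15 and 139 ± 7.13 CPM in clone 37. It rose by 0.63 (adjusted p = 8.1e-08, SE 0.058) in clone 37 and 0.25 (adjusted p = 0.024, SE 0.092) in clone 15; the latter call was lost without parental replicate 2, without parental replicate 3 and without clone 15 replicate 2, at 0.14 to 0.25. TFAM, which packages mtDNA and starts transcription, was at 0.14 (adjusted p = 0.061, SE 0.06) and 0.037 (adjusted p = 0.73, SE 0.082), and TFB2M, the other initiation factor, at 0.085 (adjusted p = 0.67, SE 0.16) and -0.15 (adjusted p = 0.45, SE 0.16). Without parental replicate 2, TFAM in clone 37 was at 0.19 (adjusted p = 0.00051). TWNK, the mtDNA helicase, rose in both clones, by 0.84 (adjusted p = 3.5e-08, SE 0.072) in clone 37 and 0.67 (adjusted p = 9.6e-07, SE 0.091) in clone 15. POLG, the mtDNA polymerase, also rose in both, by 0.65 (adjusted p = 5.1e-08, SE 0.057) and 0.84 (adjusted p = 2.1e-09, SE 0.077). PRIMPOL, a primase found in the nucleus and in mitochondria, fell in clone 15 with a value of -0.88 (adjusted p = 9e-06, SE 0.14) and was at -0.17 (adjusted p = 0.31, SE 0.14) in clone 37, or -0.33 (adjusted p = 0.0037) without parental replicate 2.

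The factors that stabilise, process or remove mitochondrial RNA went in both directions. LRPPRC, which binds and stabilises mitochondrial mRNAs together with SLIRP, fell in both clones, with -0.23 (adjusted p = 0.0047, SE 0.063) in clone 37 and -0.78 (adjusted p = 4.9e-08, SE 0.087) in clone 15. SLIRP was at 0.11 (adjusted p = 0.27, SE 0.084) in clone 37, or 0.22 (adjusted p = 0.0072) without parental replicate 2, and rose by 0.44 (adjusted p = 0.0005, SE 0.10) in clone 15. FASTK, whose mitochondrial form is needed for MT-ND6 mRNA, fell from 77.3 ± 8.47 CPM in parental to 37.1 ± 1.51 CPM in clone 37 (SD, n = 3), a log2 fold change of -1.08 (adjusted p = 3.9e-09, SE 0.078). In clone 15 it rose by 0.42 (adjusted p = 0.00027, SE 0.087). MT-ND6 was higher in clone 37, so these levels moved in opposite directions there, and their relation was not tested. SUPV3L1, PNPT1 and GRSF1, the helicase, nuclease and RNA-binding protein known to degrade minus-strand RNA, were picked after their values were seen. In clone 37 they were at 0.46 (adjusted p = 1.5e-05, SE 0.066), -0.015 (adjusted p = 0.87, SE 0.065) and 0.55 (adjusted p = 4.8e-07, SE 0.058). In clone 15 SUPV3L1 was at 0.21 (adjusted p = 0.0486, SE 0.089), a call lost in 7 of 16 alternatives (0.15 to 0.21), PNPT1 fell, at -0.35 (adjusted p = 0.00085, SE 0.082), and GRSF1 was at 0.034 (adjusted p = 0.74, SE 0.08). MRM1, which methylates the 16S rRNA, rose in both clones, by 0.83 (adjusted p = 6.2e-05, SE 0.14) in clone 37 and 0.89 (adjusted p = 2.4e-05, SE 0.15) in clone 15. PPARGC1A, a coactivator of nuclear genes for mitochondria, fell with a value of -1.69 (adjusted p = 7e-08, SE 0.15) in clone 37 and was at -0.071 (adjusted p = 0.64, SE 0.12) in clone 15.

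The nuclear genome codes for the other subunits of the same complexes and for the proteins of the ribosome that translates the mitochondrial mRNAs. Of 78 nuclear subunits of the respiratory chain, 41 were called in clone 37, a share near the 54% of all genes; 23 rose and 18 fell (median 0.10, against 0.02 over all genes). In clone 15 it was 46 of 78, 33 higher and 13 lower (median 0.22), where 51.4% of all genes were called (25.1% higher, 26.2% lower). Between the clones 19 were higher and 36 lower in clone 37, with 28.7% and 29% over all genes. Of 77 tested proteins of the mitochondrial ribosome, 41 rose and 6 fell in clone 37 (median 0.26), where 26.7% of all genes rose and 27.3% fell. In clone 15, 41 rose and 7 fell (median 0.27), where 25.1% of all genes rose and 26.2% fell.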

How the data were processed

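Total RNA from 9 HEK293T samples was sequenced as rRNA-depleted, directional, paired-end libraries. The deposited values are raw counts of read pairs per gene, which the authors made with STAR 2.7.10a on hg38, per the submitters' processing notes; the annotation release is not given in the sources used here. Each file gives counts without regard to strand and for either strand. The column matching the kit's transcript strand held 92.6% to 94.0% of the stranded gene counts. The 4 summary entries (unmapped, multimapping, no feature, ambiguous) stayed out of library totals.

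Groups were compared pairwise with edgeR 4.0.16 (quasi-likelihood, TMM, filterByExpr, Benjamini-Hochberg adjustment over all genes tested), after tests on simulated counts. Opposite-strand counts were fitted with the totals and TMM factors of the transcript strand. Library ratios had exact two-sided permutation tests. Alternatives were other scalings and filters, DESeq2 1.42.0, unstranded counts, thinning, a common fit of the 9 libraries, the replicate number as a block and leaving out each library. Positions and sequences are from GENCODE 29 on GRCh38. The 13 mRNAs and 2 rRNAs were named in any case, tRNAs where they could be tested. Of the nuclear factors, those named were the 3 with the largest called change per clone and POLRMT, TFAM, TFB2M, LRPPRC and SLIRP; SUPV3L1, PNPT1 and GRSF1 were added outside this rule after their values were seen. Members and lists were chosen with earlier results of these data known.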

Additional observations from a re-analysis of the deposited data

Results flagged for a closer look

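MT-RNR2, the 16S rRNA, was flagged because its change from parental differed between the clones: the log2 fold change was 0.80 in clone 37 and -1.81 in clone 15, and the test of clone 37 against clone 15 gave 2.63 (edgeR's quasi-likelihood test, adjusted p = 0.00751). All 3 clone 37 libraries lay above, and all 3 clone 15 libraries below, the parental ones. The call in clone 15 against parental was lost in 6 of 16 alternatives. The share of multimapping read pairs was lower in clone 15 as well, and the part of rRNA depletion, read length or mapping in this value was not tested.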

How the results depend on the processing

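Of the counts of called genes and the library ratios, 263 values under the alternatives stayed close to those reported, 8 moved and 2 reversed. Direction was checked for the ratios only, and the counts were compared by the total called. Of single-gene values, 2045 stayed the same, 75 gained and 117 lost a call, and 33 changed sign. With no filter on low counts, the genes called on their own strand in clone 37 against parental became 21, and plus-strand features called became 17. With counts that ignore strand, genes called between the clones became 7, and the MT-ND6 ratio became 1.06 in clone 37 and 0.904 in clone 15; such counts add both RNAs of a gene by construction. They also gave 0.51 for MT-ND5 in clone 37 against parental, 0.040, 0.024 and 0.022 for MT-ND5, MT-CO1 and MT-CO3 between the clones, and -0.020 and -0.021 for TFAM and GRSF1 in clone 15. With the opposite strand's own totals, the plus-strand RNA opposite MT-ND6 in clone 15 was -0.078 and that opposite MT-TP in clone 37 was -0.047. PNPT1 in clone 37 was 0.011 without TMM factors and 0.0026 after thinning, and PPARGC1A in clone 15 was 0.016 after thinning. Where no reason is given, the cause was not tested.

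Leaving out 1 library at a time gave 6 to 13 genes called in clone 15 against parental (6 without clone 15 replicate 1), 6 to 17 plus-strand features in clone 37 (17 without parental replicate 2), 9 to 16 minus-strand and 7 to 12 plus-strand features in clone 15 (9 without clone 15 replicate 2, 7 without clone 15 replicate 1), and an MT-ND6 ratio in clone 15 of 0.921 to 1.79. In clone 37 against parental, MT-ND4 ranged from -0.16 to 0.17, MT-ND5 from -0.19 to 0.10, RNA opposite MT-TP from -0.019 to 0.14, PNPT1 from -0.092 to 0.024 and TFB2M from -0.072 to 0.18. In clone 15, the antisense of MT-ND2 ranged from -0.011 to 0.48, MT-ND4L from -0.090 to 0.20, MT-TP from -0.51 to 0.059, TFAM from -0.017 to 0.10 and GRSF1 from -0.027 to 0.093. Between the clones, MT-CO1 ranged from -0.086 to 0.026, MT-CO3 from -0.12 to 0.015 and MT-ND4L from -0.011 to 0.24.

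Libraries with the same replicate number did not deviate together from their group means (correlations of -0.16 to 0.02), so the numbers do not pair the samples. With the replicate number as a block, genes called on their own strand were 16 in clone 37 and 12 in clone 15 against parental and 13 between the clones. Minus-strand features called were then 20, 13 and 17; the antisense of MT-ND5 (1.48, adjusted p = 0.13) and MT-ND1 (1.35, adjusted p = 0.13) in clone 15 did not pass there. Most tRNA genes had too few counts to be tested.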
